A study of Mus musculus with 4 samples.

Results

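Integrins, laminins and matrix glycoproteins are the molecules by which cells hold on to and read the material around them. The genes described here were those whose names in the deposited tables belong to the integrin alpha and beta chains, the laminin alpha, beta and gamma chains, the fibulins, fibrillins, nidogens, emilins and thrombospondins, the Adamts proteases, fibronectin (Fn1) and periostin (Postn). The rule found 73 genes of 22072 in the tables, with 88 transcript entries. Their RNA was measured in the mesenchyme of mouse molar tooth germs at embryonic day 14, in Msx1-/- upper molars, Msx1-/- lower molars, Msx1+/- upper molars and Msx1+/- lower molars. Msx1 is a transcription factor with a homeodomain that dental mesenchyme expresses. The mesenchyme was cut from frozen sections by laser capture, and tissue of 3 pairs of a control and a mutant embryo went into the pools. Each of the 4 groups is therefore 1 library of pooled tissue, on a mixed strain background, and the controls are labelled as Msx1+/-. The series title and the library descriptions call the same controls wild type instead, so whether they carry a mutant allele is not settled, and the genotype label is used as a name here. The labels do not name the mutant allele, nor do they tie the upper molars to the embryos that gave the lower ones.

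Integrins are surface receptors made of an alpha and a beta chain, and the pairing decides which matrix protein is bound. Laminins are cross-shaped trimers of an alpha, a beta and a gamma chain that form the sheet of the basement membrane, where nidogens join them to type IV collagen. Fibrillins and fibulins build elastic microfibrils, fibronectin and periostin belong to the looser matrix of mesenchyme, and Adamts enzymes cut matrix proteins such as versican and procollagen. In the tooth germ a basement membrane separates the epithelium from the mesenchyme, and signals between these tissues cross it.

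Levels are FPKM, a read density corrected for transcript length and for the number of mapped fragments, summed over the transcript entries of a gene. Differences are of log2(FPKM + 1), which understates the difference of weakly expressed genes, and a gene was counted as higher or lower where that difference was at least 1 in size. No difference has a replicate check, because every group holds 1 library. Read counts per gene are not given, so no counting interval can be set beside a level. A library held 10201 to 10706 genes at 1 FPKM or more, and summed coverage over transcripts ran between 264 and 410 megabases. The median difference of all 10537 measured genes between Msx1-/- and Msx1+/- was -0.03 in upper molars and -0.39 in lower ones, so the Msx1-/- lower library was low over most genes. Differences relative to that median are given where it matters. Msx1 itself was at 126 FPKM in Msx1-/- upper and 85.9 FPKM in Msx1-/- lower molars, against 170 and 184 FPKM in Msx1+/- upper and lower molars. Msx1 RNA was therefore still listed at a high level in the libraries labelled Msx1-/-, and with the allele not named, a value over the whole gene does not check those labels. Of 13 marker genes of dental mesenchyme, Msx1 among them, 13 were measured. In Msx1-/- molars of both jaws Dlx2, Prrx2 and Runx2 were lower and 0 were higher, against 1.59% and 0.399% of all measured genes. Msx1, Lhx6, Dlx1 and Bmp4 also had negative differences in both jaws. Pax9 had positive ones, of 0.57 in upper molars and 0.51 in lower ones, and its genotypes did not overlap. Differences were positive in upper molars alone for Msx2, Lhx8, Prrx1 and Twist1, and in lower molars alone for Barx1. In bulk tissue fewer cells of a type and less RNA per cell cannot be told apart.

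Of the 73 genes, 42 had a mean of at least 1 FPKM and no failed estimate. Another 30 were below that level, among them Itgad, which was listed at 0 in every library. Adamts10 had a failed estimate in Msx1+/- lower molars and was not counted. The genes Adamts4, Itgb3, Lama1 and Thbs4 reached the minimum only through the Msx1+/- libraries, so a low Msx1-/- value was built into their selection.

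In Msx1-/- molars of both jaws, 3 of the 42 genes were lower and 0 were higher, where 1.59% and 0.399% of all measured genes were. They were Itga6, an integrin alpha chain that binds laminin, Emilin2, a glycoprotein of the elastic matrix, and Thbs4, a matrix thrombospondin known from tendon. In upper molars alone the count was the same 3 genes lower and 0 higher, against 3.26% and 1.07% of all genes. In lower molars Itgav, Lama1 and Adamts4 were lower as well, which made 6 lower and 0 higher, against 9.43% and 0.864% of all genes. The median difference of the 42 genes was -0.10 in upper molars and -0.43 in lower ones, close to that of all genes.

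Itga6 (chromosome 2, 71625140 to 71694815, mm9) was at 3.99 FPKM in Msx1-/- upper and 1.89 FPKM in Msx1-/- lower molars, against 10.4 FPKM in Msx1+/- upper and 8.82 FPKM in Msx1+/- lower molars. Both Msx1-/- libraries lay below both Msx1+/- libraries. The difference was -1.20 in upper molars and -1.77 in lower ones, or -1.16 and -1.38 relative to the median of all genes. Among the 42 genes, Itga6 alone was counted in both jaws under each of the 3 rescalings of the libraries. With a pseudocount of 5 its difference was -0.78 in upper molars.

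Emilin2 (chromosome 17, 71601516 to 71660305) was at 2.33 FPKM in Msx1-/- upper and 2.24 FPKM in Msx1-/- lower molars, against 7.22 and 7.07 FPKM in Msx1+/- upper and lower molars. The jaws were nearly alike within each genotype, and the genotypes did not overlap. The difference was -1.30 in upper molars and -1.32 in lower ones, and -0.93 in lower molars relative to the median of all genes. Thbs4 (chromosome 13, 93521541 to 93564773) was near 0 in Msx1-/- molars, at 0.222 FPKM in Msx1-/- upper and 0.147 FPKM in Msx1-/- lower molars, against 1.48 and 2.84 FPKM in Msx1+/- upper and lower molars. Its difference was -1.02 in upper molars and -1.74 in lower ones, and the level is low enough that the pseudocount bears on it. With a pseudocount of 5 the Thbs4 difference was -0.31 in upper molars and -0.61 in lower ones. After rescaling by median of ratios Thbs4 was at -0.98 in upper molars and Emilin2 at -0.94 in lower molars, just short of the counting limit.

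Promoter sequences of the genes counted in both jaws are shown because these genes are the ones that were low together. Msx1 is known to bind the homeodomain core TAATTG, and capitals mark that motif or its reverse complement CAATTA. The windows of 300 bases span an annotated start, mostly upstream of it, are written 5′ to 3′ on the gene's strand, and come from RefSeq on build GRCm38.p6, which is not the build of the expression tables. Itga6 has no entry.
Emilin2, chr17:71310962-71311261, minus strand: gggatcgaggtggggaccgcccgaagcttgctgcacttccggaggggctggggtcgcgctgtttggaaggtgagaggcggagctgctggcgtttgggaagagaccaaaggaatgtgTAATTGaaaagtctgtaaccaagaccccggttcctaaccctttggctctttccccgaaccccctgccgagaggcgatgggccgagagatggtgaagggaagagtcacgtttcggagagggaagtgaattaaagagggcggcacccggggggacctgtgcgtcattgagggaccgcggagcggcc
Emilin2, chr17:71311507-71311806, minus strand: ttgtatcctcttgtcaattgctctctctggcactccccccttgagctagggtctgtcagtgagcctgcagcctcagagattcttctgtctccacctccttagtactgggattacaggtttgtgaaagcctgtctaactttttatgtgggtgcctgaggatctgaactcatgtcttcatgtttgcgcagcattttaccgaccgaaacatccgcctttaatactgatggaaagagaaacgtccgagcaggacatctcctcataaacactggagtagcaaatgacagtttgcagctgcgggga
Thbs4, chr13:92794769-92795068, minus strand: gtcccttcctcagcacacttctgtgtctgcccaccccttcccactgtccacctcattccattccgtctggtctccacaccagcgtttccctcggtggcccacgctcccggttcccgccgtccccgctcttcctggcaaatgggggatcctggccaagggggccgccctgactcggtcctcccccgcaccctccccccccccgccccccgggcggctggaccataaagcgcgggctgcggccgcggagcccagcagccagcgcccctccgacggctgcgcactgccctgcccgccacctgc
The first Emilin2 window held 1 match, 134 bases before the start, and the other windows shown held 0. Among all 32851 promoter windows 8.0% held the motif, and 4 of 52 windows of the genes described here (7.69%) did. Windows were matched for 45 of the 73 genes. The other windows with a match belonged to Postn, Lama2 and Fbln1. A match of 6 letters is a description of the sequence and not a binding site.

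**Figure D1:**
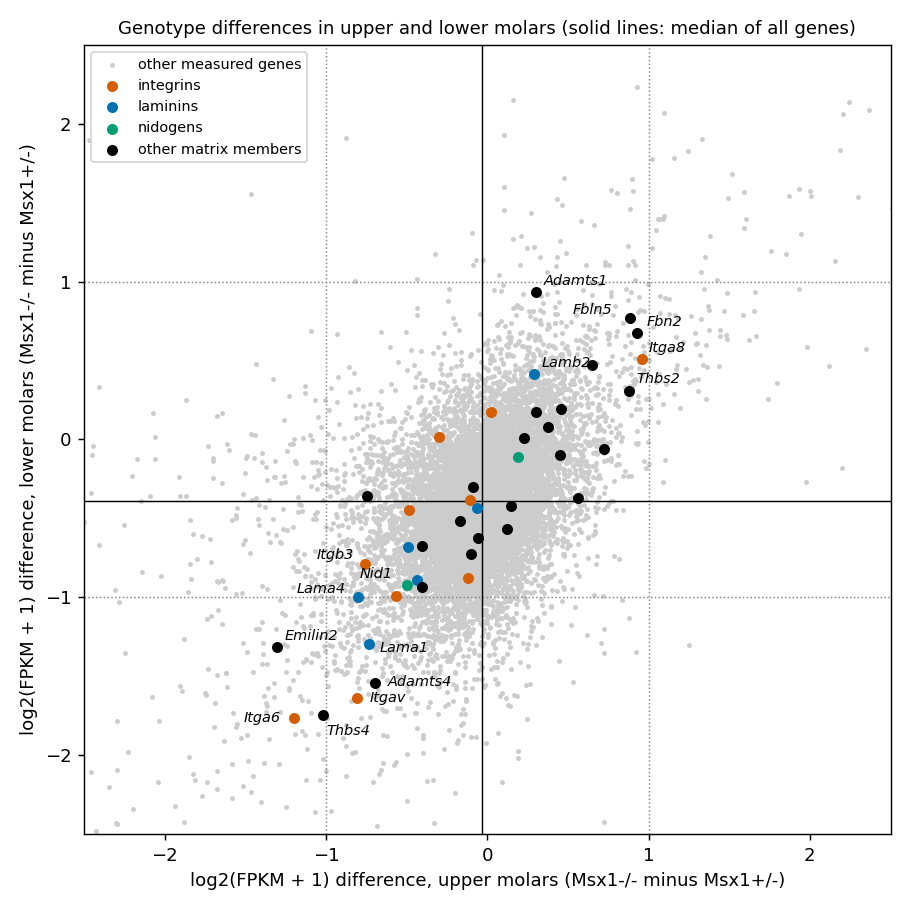
Each point is a gene, with its log2(FPKM + 1) difference between Msx1-/- and Msx1+/- in upper molars on the x axis and in lower molars on the y axis. Grey points are other measured genes inside the axes, dotted lines mark a difference of 1 and solid lines the median of all genes. Itga6, Emilin2 and Thbs4 lie beyond -1 on both axes, and none of the coloured or black points lies beyond 1.

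Itgav and Itgb3, whose products pair as a receptor for the RGD sequence of fibronectin, periostin and other ligands, both had their highest levels in the Msx1+/- libraries. Itgav was at 6.28 FPKM in Msx1-/- upper and 3.84 FPKM in Msx1-/- lower molars, against 11.7 and 14.1 FPKM in Msx1+/- upper and lower molars. The difference was -0.81 in upper molars, which was not counted, and -1.64 in lower molars. Itgb3 was at 0.512 and 0.732 FPKM in Msx1-/- upper and lower molars, against 1.56 and 1.995 FPKM in Msx1+/- upper and lower molars. Its differences of -0.76 and -0.79 were not counted. The genotypes did not overlap for either gene, with Msx1-/- the lower, as for 41.3% of all measured genes. With a pseudocount of 0.1 Itgb3 was counted as lower in both jaws.

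The most abundant beta chains were Itgb5, another partner of Itgav, and Itgb1, the partner of most alpha chains. Itgb5 was at 37.8 and 36.1 FPKM in Msx1-/- upper and lower molars, against 53.3 and 49.5 FPKM in Msx1+/- upper and lower molars. Itgb1 was at 40.3 and 25.5 FPKM in Msx1-/- upper and lower molars, against 43.9 and 47.8 FPKM in Msx1+/- upper and lower molars. Neither was counted, and on deposited values both had Msx1-/- below Msx1+/- in each jaw. After rescaling by median of ratios the lower-molar difference of Itgb5 was 0.03, in place of -0.45, and its genotypes overlapped. Itgb1 stood 0.12 lower in upper and 0.88 lower in lower molars on the log2 scale, so its gap was mostly in the jaw whose Msx1-/- library was low over most genes. After the same rescaling the Itgb1 difference was -0.08 in upper molars and -0.40 in lower ones. Its genotypes still did not overlap then, as for 23.5% of all measured genes in that direction. The other 5 beta chains, among them Itgb2 and Itgb7 of white blood cells and Itgb4 and Itgb6 of epithelia, were all below the minimum.

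Among alpha chains the fibronectin receptor chain Itga5 was the most abundant, at 12.1 and 17.5 FPKM in Msx1-/- upper and lower molars, against 15.1 and 17.3 FPKM in Msx1+/- upper and lower molars. Its values overlapped between genotypes. Itga9, which binds tenascin and other matrix ligands, was at 9.47 and 7.32 FPKM in Msx1-/- upper and lower molars, against 14.5 and 15.6 FPKM in Msx1+/- upper and lower molars. The Itga9 difference of -0.57 in upper molars and -0.99 in lower ones just missed the limit in the lower jaw, where it was -0.61 relative to the median of all genes. The shorter of the Itga9 transcript entries was at 7.20 and 5.10 FPKM in Msx1-/- upper and lower molars, against 10.01 and 9.69 FPKM in Msx1+/- upper and lower molars.

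Itga8 stood on the other side. This chain pairs with Itgb1 as the receptor for nephronectin (Npnt) and is known from mesenchyme. It was at 10.04 FPKM in Msx1-/- upper and 4.60 FPKM in Msx1-/- lower molars, against 4.69 and 2.93 FPKM in Msx1+/- upper and lower molars. The difference was 0.96 in upper molars, just short of the limit, and 0.51 in lower ones, or 0.90 there relative to the median of all genes. The genotypes overlapped on deposited values, and upper molars were the higher in each genotype. Npnt, from the list of basement membrane partners, was at 19.3 and 18.3 FPKM in Msx1-/- upper and lower molars, against 7.44 and 10.3 FPKM in Msx1+/- upper and lower molars. The Npnt difference was 1.26 in upper molars, which was counted, and 0.78 in lower molars.

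Of 18 alpha chains, 11 were below the minimum. They included Itga1, Itga2, Itga10, Itga3 and Itga7, which bind collagen or laminin, and the chains of white blood cells and platelets. Itgam of macrophages was the highest gene below the minimum, with a mean of 0.790 FPKM. The macrophage marker list (14 of 14 genes found, 11 measured) summed to 49.0 and 61.4 FPKM in Msx1-/- upper and lower molars, against 40.5 and 55.6 FPKM in Msx1+/- upper and lower molars, and none of its genes was at 0.

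**Figure D2:**
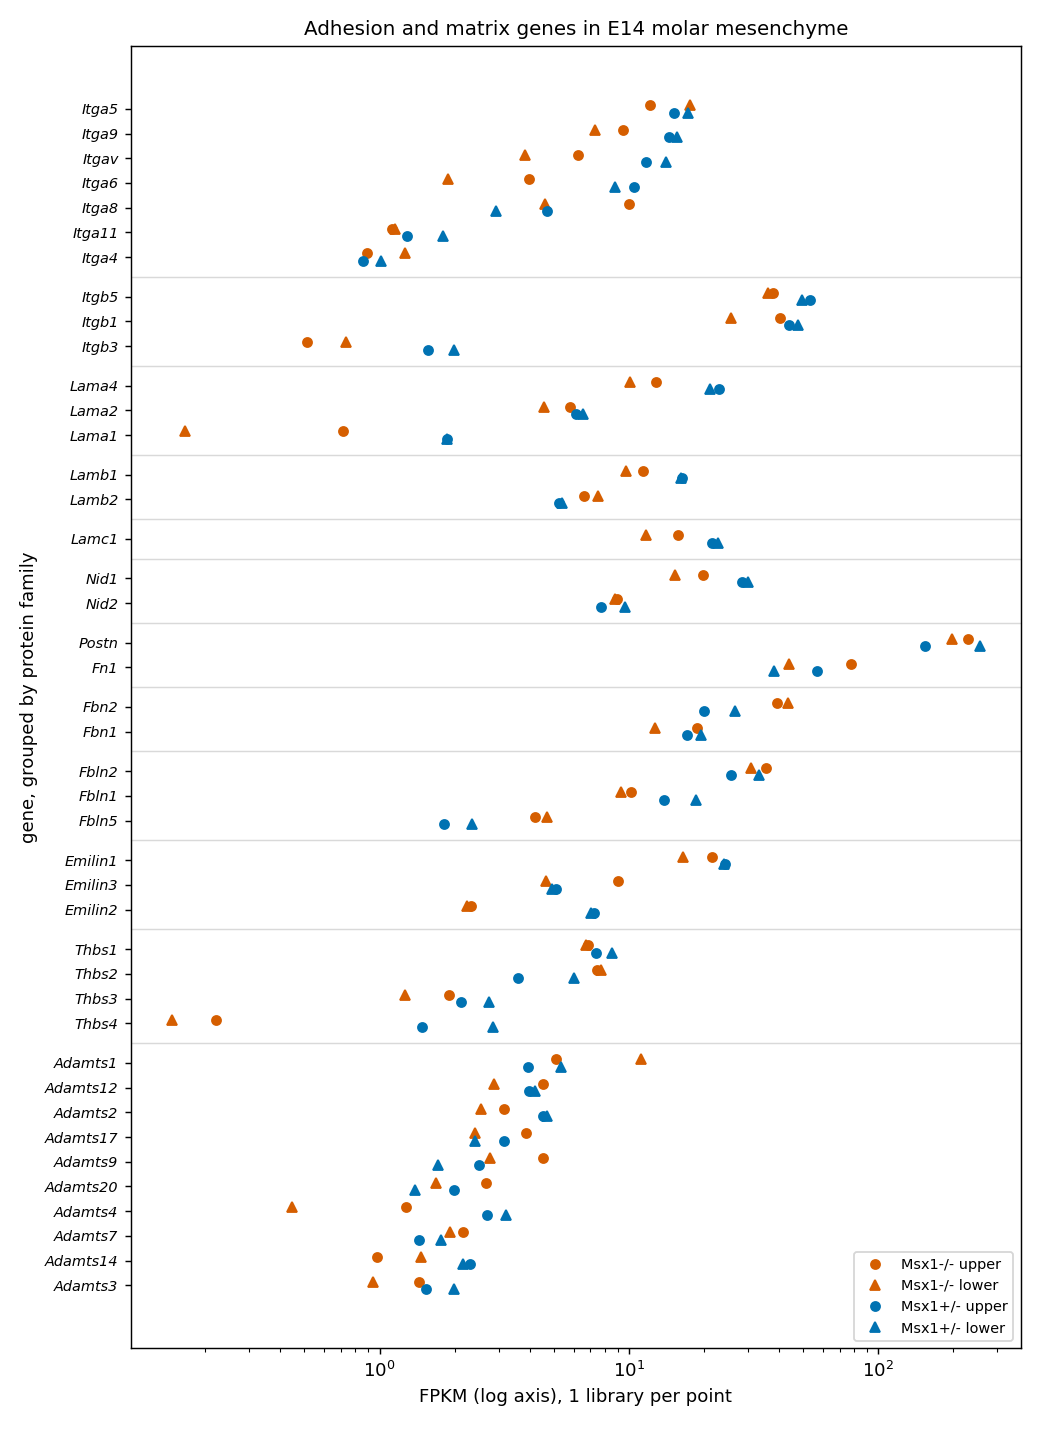
FPKM on a log axis for the 42 measured genes, ordered by family and by mean level, with 1 point per library. Msx1-/- points are orange and sit above the blue Msx1+/- points of the same gene, circles are upper and triangles lower molars, and the widest gaps between colours are at Thbs4, Emilin2 and Lama1.

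Of 6 measured laminin chains 1, Lama1, was counted, as lower in lower molars, where 9.43% of all measured genes were. Lama1 reached the minimum level only through the Msx1+/- libraries. Summed over genes, alpha chains were at 19.7 and 15.3 FPKM in Msx1-/- upper and lower molars, against 31.3 and 29.9 FPKM in Msx1+/- upper and lower molars. The beta chains summed to 18.0 and 17.3 FPKM in Msx1-/- upper and lower molars, against 21.7 and 21.6 FPKM in Msx1+/- upper and lower molars. The gamma chains summed to 16.0 and 12.03 FPKM in Msx1-/- upper and lower molars, against 22.8 and 23.7 FPKM in Msx1+/- upper and lower molars. Alpha chains were thus the most abundant of the chain types in Msx1+/- molars, and in Msx1-/- molars alpha and beta chains stood closer together.

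Lama4, the alpha chain of vessels and mesenchyme, was at 12.8 and 10.1 FPKM in Msx1-/- upper and lower molars, against 23.1 and 21.2 FPKM in Msx1+/- upper and lower molars. Its difference was -0.80 in upper molars, and in lower molars it was just short of the limit on deposited values. Relative to the median of all genes it was -0.61 in lower molars, and after rescaling by median of ratios -0.54, while a pseudocount of 0.1 gave -1.06. Lama1, the alpha chain of early embryonic basement membranes, was at 0.717 and 0.167 FPKM in Msx1-/- upper and lower molars, against 1.86 and 1.87 FPKM in Msx1+/- upper and lower molars. The Lama1 difference was -0.73 in upper molars and -1.30 in lower ones, and it was counted in lower molars. Lama2, the alpha chain best known from muscle, was at 5.83 and 4.57 FPKM in Msx1-/- upper and lower molars, against 6.13 and 6.53 FPKM in Msx1+/- upper and lower molars. Relative to the median of all genes Lama2 differed by -0.03 in upper molars and -0.05 in lower ones. Lama3 and Lama5, chains of epithelial basement membranes, were below the minimum.

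Lamb1 was at 11.4 and 9.72 FPKM in Msx1-/- upper and lower molars, against 16.4 and 16.2 FPKM in Msx1+/- upper and lower molars. Its alternative in the trimer, Lamb2, was at 6.61 and 7.51 FPKM in Msx1-/- upper and lower molars, against 5.22 and 5.39 FPKM in Msx1+/- upper and lower molars. Neither was counted, and the genotypes did not overlap for either, in opposite directions. Of all measured genes, 41.3% had Msx1-/- below Msx1+/- without overlap and 9.52% had it above. The ratio of Lamb1 to Lamb2 within a library, which no rescaling can alter, was 1.72 and 1.29 in Msx1-/- upper and lower molars, against 3.14 and 3.00 in Msx1+/- upper and lower molars. Lamc1, the common gamma chain, was at 15.7 and 11.8 FPKM in Msx1-/- upper and lower molars, against 21.6 and 22.7 FPKM in Msx1+/- upper and lower molars. Lamc3 was below the minimum, at 0.149 and 0.205 FPKM in Msx1-/- upper and lower molars, against 1.17 and 0.958 FPKM in Msx1+/- upper and lower molars.

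Nidogens link laminin to the collagen network. Nid1 was at 19.8 and 15.3 FPKM in Msx1-/- upper and lower molars, against 28.5 and 29.9 FPKM in Msx1+/- upper and lower molars. Nid2 was at 8.99 and 8.83 FPKM in Msx1-/- upper and lower molars, against 7.75 and 9.60 FPKM in Msx1+/- upper and lower molars. The Nid1 values did not overlap between genotypes, with differences of -0.50 and -0.92, while the Nid2 values did. Relative to the median of all genes the lower-molar difference of Nid1 was -0.54, and that of Nid2 was 0.28. The ratio of Nid1 to Nid2 was 2.21 and 1.73 in Msx1-/- upper and lower molars, against 3.68 and 3.11 in Msx1+/- upper and lower molars. Nid2 overlaps another annotated gene, and nothing in the labels says that strand was kept.

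**Figure D3:**
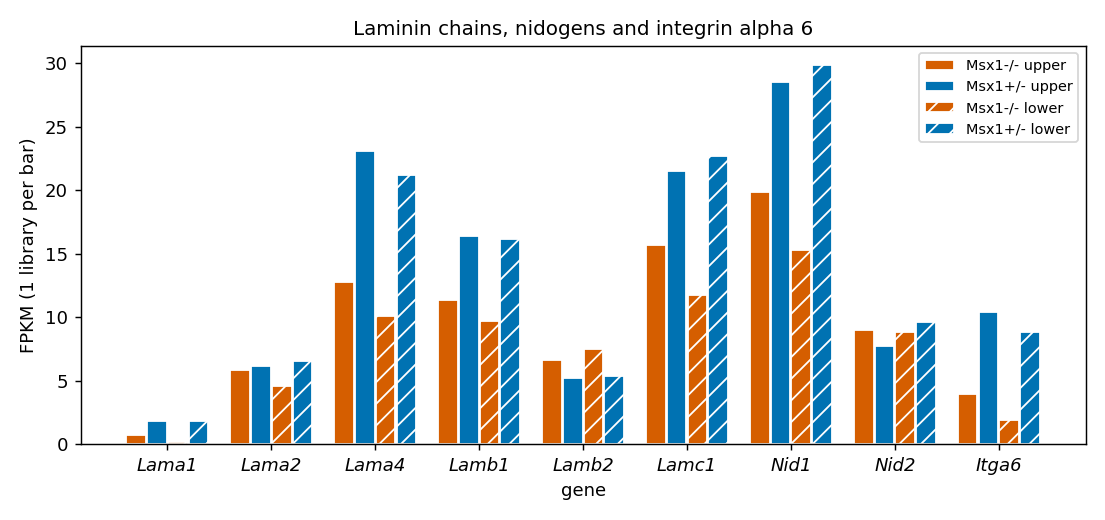
FPKM on a linear axis from 0 for laminin chains, nidogens and Itga6, with 1 bar per library, Msx1-/- orange and Msx1+/- blue, lower molars hatched. Lama1, Lama2, Lama4, Lamb1, Lamc1, Nid1 and Itga6 have both orange bars below both blue bars, and Lamb2 has them above. Of all measured genes, 41.3% lay below in this way and 9.52% above.

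Vessels carry Lama4, Itga6 and Nid1 as well as mesenchyme. The endothelial marker list (14 of 14 genes found, 13 measured, none at 0) summed to 71.9 and 65.9 FPKM in Msx1-/- upper and lower molars, against 93.2 and 86.6 FPKM in Msx1+/- upper and lower molars. Its defining gene Cdh5 was at 16.5 and 17.4 FPKM in Msx1-/- upper and lower molars, against 18.9 and 18.1 FPKM in Msx1+/- upper and lower molars. Egfl7 alone was counted, in upper molars, at 9.66 FPKM in Msx1-/- and 22.6 FPKM in Msx1+/-. Tek, Tie1 and Cldn5 had positive differences in upper molars, and the other measured genes of the list negative ones. The list's median difference was -0.18 in upper molars and -0.37 in lower ones. The list of pericyte and smooth muscle genes (10 of 10 found, 4 measured) summed to 43.0 and 21.0 FPKM in Msx1-/- upper and lower molars, against 58.7 and 67.0 FPKM in Msx1+/- upper and lower molars, with Cnn1 at 0 in Msx1-/- lower molars. The largest share of the Msx1+/- sums was Pdgfrb, whose estimate failed in Msx1-/- lower molars, and without it the sums were 26.1 and 11.2 FPKM in Msx1-/- upper and lower molars, against 20.8 and 24.3 FPKM in Msx1+/- upper and lower molars. Acta2 was higher in Msx1-/- upper molars, at 15.2 FPKM against 2.53 FPKM in Msx1+/- upper molars, and Rgs5 and Tagln were lower in Msx1-/- lower molars. Epithelial markers (16 of 16 found, 8 measured) went the other way, with sums of 52.6 and 75.9 FPKM in Msx1-/- upper and lower molars, against 29.0 and 47.1 FPKM in Msx1+/- upper and lower molars. In that list Shh and Cldn4 were at 0 in both Msx1+/- libraries. The part of these cells in the laminin, nidogen and Itga6 values was not tested.

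Of 19 partner genes of the basement membrane, 18 were found and 12 measured, and Frem1 had a failed estimate. In both jaws 0 were counted, where 1.59% of all measured genes were lower and 0.399% higher. Npnt was counted as higher in upper molars alone, where 1.07% of all measured genes were. The median difference of the list was -0.01 in upper molars and -0.34 in lower ones. The type IV collagen genes Col4a1 and Col4a2, the core of the basement membrane network, were not counted. For both, the Msx1-/- values lay below both Msx1+/- values, as they did for 41.3% of all measured genes. Col4a2 was at 20.9 and 25.4 FPKM in Msx1-/- upper and lower molars, against 27.0 and 27.4 FPKM in Msx1+/- upper and lower molars. Col4a1 was at 20.5 and 16.9 FPKM in Msx1-/- upper and lower molars, against 28.0 and 24.2 FPKM in Msx1+/- upper and lower molars. Perlecan (Hspg2) was at 15.6 and 13.3 FPKM in Msx1-/- upper and lower molars, against 14.3 and 15.6 FPKM in Msx1+/- upper and lower molars.

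Inside the cell, integrins are joined to actin by linker proteins, and 20 of 24 genes of that list were measured. None was counted in upper molars or in both jaws. In lower molars 4 were lower and 1 was higher, against 9.43% and 0.864% of all measured genes. The 4 lower differences ran from -1.25 (Vcl) to -1.09 (Bcar1), in the jaw where the median of all genes was -0.39. The median of this list was -0.18 in upper molars and -0.49 in lower ones. The kindlin gene Fermt2, an integrin activator, was at 13.6 and 10.02 FPKM in Msx1-/- upper and lower molars, against 24.7 and 24.2 FPKM in Msx1+/- upper and lower molars. The genotypes did not overlap for Fermt2, and its difference was -0.82 in upper molars and -1.19 in lower ones. Vinculin (Vcl) was at 12.3 and 6.63 FPKM in Msx1-/- upper and lower molars, against 19.2 and 17.2 FPKM in Msx1+/- upper and lower molars. Bcar1 and Actn1 were the other lower genes, and the caveolin gene Cav1 was the higher one, with 16.5 FPKM in Msx1-/- lower and 5.40 FPKM in Msx1+/- lower molars.

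Periostin, a matrix protein known from periodontal and bone-forming mesenchyme, was the most abundant of the 73 genes. Postn was at 229 FPKM in Msx1-/- upper and 197 FPKM in Msx1-/- lower molars, against 155 and 256 FPKM in Msx1+/- upper and lower molars. The Msx1-/- values lay between the Msx1+/- values, so the genotypes overlapped and the difference was 0.56 in upper molars and -0.37 in lower ones. Relative to the median of all genes the lower-molar difference of Postn was 0.01. One of the 3 Postn entries, the shortest at 3130 bases, was at 0.000127 and 0.000221 FPKM in Msx1-/- upper and lower molars, against 0.683 and 35.7 FPKM in Msx1+/- upper and lower molars. The entries share nearly all of their sequence, so how reads were split between them is an estimate. Fibronectin (Fn1) was at 77.8 and 43.9 FPKM in Msx1-/- upper and lower molars, against 56.5 and 38.3 FPKM in Msx1+/- upper and lower molars. Its values overlapped between genotypes, and upper molars were the higher in each genotype.

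Among microfibril genes Fbn2, the fibrillin of embryonic tissue, was at 39.1 and 43.3 FPKM in Msx1-/- upper and lower molars, against 20.1 and 26.7 FPKM in Msx1+/- upper and lower molars. Both Msx1-/- values lay above both Msx1+/- values, with differences of 0.93 and 0.68 on deposited values and of 0.96 and 1.06 relative to the median of all genes. Fbn1, its paralogue of later tissue, was at 18.7 and 12.7 FPKM in Msx1-/- upper and lower molars, against 17.1 and 19.4 FPKM in Msx1+/- upper and lower molars. The ratio of Fbn2 to Fbn1 was 2.09 and 3.40 in Msx1-/- upper and lower molars, against 1.17 and 1.38 in Msx1+/- upper and lower molars. After rescaling to a common upper quartile Fbn2 was counted as higher in both jaws, and under each of the 3 rescalings it was counted in lower molars.

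Fbln5, a fibulin needed for elastic fibre assembly, was at 4.19 and 4.69 FPKM in Msx1-/- upper and lower molars, against 1.81 and 2.34 FPKM in Msx1+/- upper and lower molars. The genotypes did not overlap, and the difference was 0.88 in upper molars and 0.77 in lower ones, or 0.92 and 1.16 relative to the median of all genes. Fbln1, a fibulin of basement membranes and vessels, went the other way, at 10.2 and 9.26 FPKM in Msx1-/- upper and lower molars, against 13.8 and 18.6 FPKM in Msx1+/- upper and lower molars. Fbln2, the most abundant fibulin, was at 35.3 and 31.0 FPKM in Msx1-/- upper and lower molars, against 25.6 and 33.3 FPKM in Msx1+/- upper and lower molars. Its lower-molar difference was -0.10 on deposited values and 0.29 relative to the median of all genes. Its values overlapped between genotypes, yet the ratio of Fbln2 to Fbln1 was 3.48 and 3.34 in Msx1-/- upper and lower molars, against 1.86 and 1.79 in Msx1+/- upper and lower molars.

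The partner list for microfibrils and elastic fibres had 10 of 17 genes measured. In both jaws 1 was higher and 1 lower, where 0.399% and 1.59% of all measured genes were. Elastin (Eln) was at 30.1 and 35.8 FPKM in Msx1-/- upper and lower molars, against 15.7 and 10.7 FPKM in Msx1+/- upper and lower molars. Its difference was 0.90 in upper molars, short of the limit, and 1.65 in lower molars. The fibulin relative Efemp1 was at 17.4 and 9.99 FPKM in Msx1-/- upper and lower molars, against 3.83 and 4.67 FPKM in Msx1+/- upper and lower molars, and it was counted in upper molars. The cross-linking enzyme genes Lox and Loxl1, the genes counted in both jaws, went in opposite directions. Loxl1 was at 4.33 and 5.34 FPKM in Msx1-/- upper and lower molars, against 9.91 and 12.6 FPKM in Msx1+/- upper and lower molars. The median difference of this list was 0.42 in upper molars and 0.06 in lower ones, above the medians of all genes.

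Emilin1, the most abundant emilin, was at 21.5 and 16.5 FPKM in Msx1-/- upper and lower molars, against 24.2 and 24.0 FPKM in Msx1+/- upper and lower molars, and it differed by -0.14 and -0.13 relative to the median of all genes. Emilin3 was at 9.06 and 4.65 FPKM in Msx1-/- upper and lower molars, against 5.10 and 4.89 FPKM in Msx1+/- upper and lower molars, with differences of 0.72 in upper molars and -0.06 in lower ones. Relative to the median of all genes the lower-molar difference was 0.32, and after rescaling by median of ratios the genotypes did not overlap. Emilin2 was thus the one emilin counted. Of the thrombospondins, Thbs1, an activator of latent Tgf-beta, was at 6.86 and 6.75 FPKM in Msx1-/- upper and lower molars, against 7.37 and 8.55 FPKM in Msx1+/- upper and lower molars. Thbs2, known from connective tissue and collagen fibre assembly, was at 7.46 and 7.72 FPKM in Msx1-/- upper and lower molars, against 3.60 and 6.04 FPKM in Msx1+/- upper and lower molars. The ratio of Thbs1 to Thbs2 was 0.919 and 0.874 in Msx1-/- upper and lower molars, against 2.05 and 1.42 in Msx1+/- upper and lower molars. Thbs1 was therefore the more abundant of the pair in Msx1+/- molars and Thbs2 in Msx1-/- molars.

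**Figure D4:**
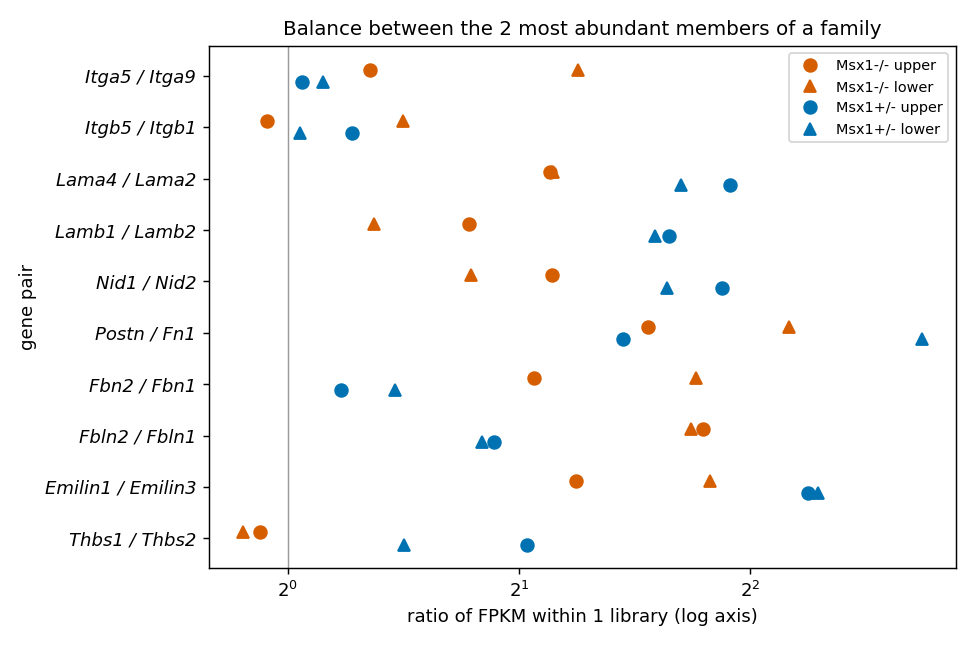
Ratio of FPKM, on a log axis, between the 2 most abundant genes of each family within a library, for the 10 families in which both were measured. Orange is Msx1-/- and blue Msx1+/-, circles are upper and triangles lower molars. The colours do not overlap for 8 of the pairs, and they do for Itgb5 to Itgb1 and Postn to Fn1.

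Such ratios do not depend on the scaling of a library. For 8 of the 10 pairs the Msx1-/- ratios lay entirely on one side of the Msx1+/- ratios, where 49.6% of all pairs of measured genes did so. The ratio of Lama4 to Lama2 was 2.19 and 2.22 in Msx1-/- upper and lower molars, against 3.76 and 3.25 in Msx1+/- upper and lower molars. Counted gene by gene, the genotypes did not overlap on deposited values for 23 of the 42 genes in the lower direction and 6 in the higher direction, against 41.3% and 9.52% of all measured genes. After rescaling by median of ratios these counts were 20 lower and 14 higher, against 23.5% and 24.4% of all measured genes. The 6 genes higher on deposited values were Fbn2, Fbln5, Thbs2, Lamb2, Adamts7 and Adamts9. When the genotypes also had to stand at least 1 apart on deposited values, 2 genes were lower and 0 higher, against 1.19% and 0.256% of all measured genes. The lower ones were Emilin2 and Thbs4. After rescaling by median of ratios Emilin2 was at -0.94 in lower molars and Thbs4 at -0.98 in upper molars, short of that limit. Of the genes lower in these counts, Adamts4, Itgb3, Lama1 and Thbs4 reached the minimum level only through the Msx1+/- libraries.

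The Adamts proteases, with 10 of 19 genes measured, included 1 gene counted, as lower in lower molars, where 9.43% of all measured genes were. Adamts4, a versican- and aggrecan-cutting enzyme, was at 1.28 and 0.447 FPKM in Msx1-/- upper and lower molars, against 2.69 and 3.21 FPKM in Msx1+/- upper and lower molars. Its difference was -0.70 in upper molars and -1.54 in lower ones, so it was counted in lower molars. The genotypes did not overlap for Adamts4, with Msx1-/- the lower, as for 41.3% of all measured genes. It reached the minimum level only through the Msx1+/- libraries. Adamts1, an enzyme with the same substrates and the most abundant with a usable estimate, was at 5.09 and 11.1 FPKM in Msx1-/- upper and lower molars, against 3.93 and 5.37 FPKM in Msx1+/- upper and lower molars. The difference was 0.30 in upper molars and 0.93 in lower ones, and in lower molars it was counted under each of the 3 rescalings. Adamts9, another versican-cutting enzyme, was at 4.51 and 2.76 FPKM in Msx1-/- upper and lower molars, against 2.51 and 1.71 FPKM in Msx1+/- upper and lower molars.

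Adamts2, Adamts3 and Adamts14 trim the ends of fibrillar procollagens. Adamts2 was at 3.17 and 2.56 FPKM in Msx1-/- upper and lower molars, against 4.52 and 4.69 FPKM in Msx1+/- upper and lower molars. Adamts14 was at 0.973 and 1.47 FPKM in Msx1-/- upper and lower molars, against 2.30 and 2.16 FPKM in Msx1+/- upper and lower molars. Adamts3 was at 1.44 and 0.941 FPKM in Msx1-/- upper and lower molars, against 1.54 and 1.997 FPKM in Msx1+/- upper and lower molars. None of these was counted. For each, both Msx1-/- values lay below both Msx1+/- values, as they did for 41.3% of all measured genes. The 7 measured genes not yet described, Adamts7, Adamts12, Adamts17, Adamts20, Itga4, Itga11 and Thbs3, differed by between -0.72 (Thbs3, lower molars) and 0.38 (Adamts7, upper molars), and none was counted. Versican (Vcan) itself was at 151 and 72.8 FPKM in Msx1-/- upper and lower molars, against 88.7 and 73.7 FPKM in Msx1+/- upper and lower molars. In the list of other matrix proteins 13 of 22 genes were measured and 0 were counted in both jaws. Tenascin C (Tnc) and Cyr61 were lower in lower molars, where 9.43% of all measured genes were. The list's median difference was -0.23 in upper molars and -0.29 in lower ones.

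Cartilage also expresses several of these matrix genes. The cartilage marker list (8 of 8 found, 3 measured) summed to 14.3 and 21.1 FPKM in Msx1-/- upper and lower molars, against 6.84 and 5.64 FPKM in Msx1+/- upper and lower molars. Matn3 was at 0 in Msx1-/- upper, Msx1-/- lower and Msx1+/- upper molars, and Matn1 in Msx1-/- upper, Msx1+/- upper and Msx1+/- lower molars. Osteoblast markers (8 of 8 found, 6 measured) summed to 51.1 and 33.8 FPKM in Msx1-/- upper and lower molars, against 35.0 and 35.9 FPKM in Msx1+/- upper and lower molars, with Bglap at 0 in Msx1-/- lower molars. Within that list Ibsp and Ifitm5 were higher in Msx1-/- molars of both jaws and Spp1 was lower. Ibsp was at 19.1 and 9.21 FPKM in Msx1-/- upper and lower molars, against 4.25 and 2.40 FPKM in Msx1+/- upper and lower molars. Spp1 was at 0.0217 and 0.0213 FPKM in Msx1-/- upper and lower molars, against 5.70 and 6.92 FPKM in Msx1+/- upper and lower molars. The part of such cells in the Fbn2, Fbln5, Thbs2 and Adamts1 values was not tested.

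Jaws were also compared within each genotype, upper against lower. None of the 42 genes was counted in either direction in Msx1-/- molars, where 3.22% of all measured genes were higher and 0.418% lower in upper molars. None was counted in Msx1+/- molars either, where 1.48% were higher and 0.218% lower. The median difference of the 42 genes, upper minus lower, was 0.26 in Msx1-/- and -0.10 in Msx1+/- molars, beside 0.27 and -0.08 for all genes. Fn1 differed by 0.81 in Msx1-/- and 0.55 in Msx1+/- molars, and Itga8 by 0.98 and 0.53. Adamts1 was the lowest in upper against lower Msx1-/- molars, just within the limit, and it was counted there after each of the 3 rescalings. Postn differed by 0.21 in Msx1-/- and -0.72 in Msx1+/- molars.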

How the data were processed

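RNA was sequenced in 4 libraries, 1 for each labelled genotype and jaw. Per the labels, RNA came from laser-captured mesenchyme and cDNA with a NuGEN Ovation RNA-Seq kit. Bowtie 0.12.7, TopHat 1.4.1 and the build mm9 are named in the submitters' processing notes. File headers have the layout of Cufflinks output (version not given in the sources used here). The authors deposited, per the file headers, FPKM, coverage and a status flag for each of 28107 transcript entries. Coverage was used here for the depth of a library and for no gene. Its median ratio to FPKM, over entries above 1 FPKM, was 1.09 and 0.924 in Msx1-/- upper and lower molars. In Msx1+/- upper and lower molars it was 1.05 and 0.812.

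FPKM values were summed per gene name. Genes with a failed estimate (66) and small RNA names (715) were left out, and a mean of at least 1 FPKM left 10537 genes. Differences of log2(FPKM + 1) were taken without rescaling and with no test, since each group has 1 library. Genes named were those counted, the 2 most abundant of each family, and partner chains. Others were chosen after their values were seen. Members, lists and rules were chosen with earlier results of these data known. Positions were made 1-based by adding 1 to each start. Also tried were pseudocounts (0.1 and 5), no filter on level, a mean of at least 5 FPKM, 3 rescalings, failed estimates kept, the largest transcript entry, and limma 3.58.1 (R 4.3.3) on genotype and jaw with Benjamini-Hochberg adjustment. The counting and the limma fit were tested on simulated data. Tables were handled with Python 3.11.15 and pandas 2.3.3.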

Additional observations from a re-analysis of the deposited data

How the results depend on the processing

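Of the counts of genes recomputed under another setting, 85 stayed within 1.5 times the count given above and 27 did not. Most of those 85 were counts of 0 that stayed at 0, which says little about stability. Among the counts followed, only those of genes lower in Msx1-/- upper molars, lower molars and both jaws began above 0. No gene followed singly reversed a counted direction. Shares in brackets are those of all measured genes under the same setting. Lower in both jaws, where 3 genes were counted, were 6 with a pseudocount of 0.1 (2.66%), 0 with a pseudocount of 5 (0.626%), 1 of 25 at a minimum mean of 5 FPKM (1.99%), and 1 (Itga6) after each of the 3 rescalings (1.08% to 1.15%). The limma fit over the 4 libraries called 7 lower (4.37%) and 0 higher (1.19%), adding Itgav, Itgb3, Lama1 and Adamts4, with a smallest adjusted p of 7.65e-08 for Thbs4. Of these 7, 4 (Adamts4, Itgb3, Lama1 and Thbs4) reached the minimum level only through the Msx1+/- libraries. That fit has 1 residual degree of freedom, takes the genotype-by-jaw difference as error and pooled the spread over all genes, so its p-values lean on genes varying alike. Higher in both jaws was 1 gene after rescaling to a common upper quartile (0.776%). In upper molars 7 were lower with a pseudocount of 0.1 (4.7%), 0 with 5 (1.34%) and 1 at a minimum mean of 5 FPKM (3.96%). Higher there were 3 with a pseudocount of 0.1 (2.34%), 1 after rescaling to a common total (1.25%) and 2 to a common upper quartile (1.35%). In lower molars 11 were lower with a pseudocount of 0.1 (16.2%), 2 with 5 (3.04%) and 2 of 25 at a minimum mean of 5 FPKM (13.6%). Higher there were 1 with a pseudocount of 0.1 (1.67%) and 3 after each rescaling (Adamts1, Fbln5 and Fbn2), where 2.36% to 2.63% of all genes were higher, against 0.864% on deposited values. Between jaws of Msx1-/- molars, 4 were higher in upper molars with a pseudocount of 0.1 (7.49%). Lower there was 1 with a pseudocount of 0.1 (0.835%) and after each rescaling (Adamts1, 0.871% to 0.984%), and 1 with failed estimates kept (Adamts10, 0.425%). The cause of these shifts was not tested. No paired analysis was possible because the labels number no replicates and each group holds 1 library. Jaw was a term of the limma fit, which therefore compared the genotypes within jaws. Read counts are not given, so counting error cannot be set against any of these shifts, and it weighs most on genes near the minimum, such as Thbs4, Lama1 and Itgb3.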
